A study of Mus musculus with 48 samples.

Results

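Transient receptor potential (TRP) channels are cation channels of the plasma membrane, and 8 of their genes are described here in the hippocampus of mice labelled as conditional knock-outs (cKO) of Setd1b and of controls. The genes are Trpa1, Trpv1, Trpv2, Trpm8, Trpc1, Trpc4, Trpc5 and Trpc6, found by symbol among the 48709 gene identifiers of the neuron count files and the 47729 of the whole-tissue count files. Trpa1 was chosen from its RNA values, for its rise in the libraries labelled cKO, so its RNA difference between genotypes is given as a description with no test. The other 7 genes were added for comparison.

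Trpa1 encodes a channel opened by irritants such as mustard oil and is best known from pain-sensing neurons, as are Trpv1, the capsaicin and heat receptor, and Trpm8, the menthol and cold receptor. Trpv2 encodes another channel of the vanilloid subfamily, found in many cell types. The canonical subfamily is represented by Trpc1, Trpc4, Trpc5 and Trpc6, whose channels open downstream of Gq-coupled receptors and phospholipase C; Trpc1 subunits assemble with Trpc4 or Trpc5 subunits, and Trpc6 channels are opened by diacylglycerol. SETD1B methylates histone H3 at lysine 4 and works in a complex with CFP1, a protein that binds unmethylated CpG dinucleotides.

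All mice were adult C57BL/6J, 4 to 6 months of age, and carried 1 of 2 labelled genotypes, Setd1b cKO or Control. RNA was sequenced from hippocampal CA neurons (3 cKO and 3 Control libraries) and from whole hippocampal CA tissue (6 and 6), and 4 histone marks were profiled by chromatin immunoprecipitation (ChIP) from sorted neuronal nuclei in 30 libraries, with 4 and 4 libraries for H3K4me3 and H3K4me1, 4 cKO and 3 Control for H3K27ac, and 3 cKO and 4 Control for H3K9ac. The labels name neither the Cre driver nor the deleted exons, and nothing in them says that libraries of a group came from separate animals, so p-values measure the spread between libraries, which may be technical. In bulk RNA, fewer cells of a type and less RNA per cell cannot be told apart.

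Libraries held 55.7 M to 69.1 M counts (M, 1000000) in neuron RNA and 14.9 M to 20.1 M in whole CA RNA. Setd1b, the targeted gene, did not have lower counts under the cKO label: its counts per 1000000 normalised counts (CPM) were 60.2 to 71.6 against 47.8 to 65.5 in neurons, and 53.2 to 68.0 against 29.3 to 54.6 in whole CA, where edgeR placed it 0.59 ± 0.11 (SE, log2) higher (adjusted p = 0.00415). These counts take in the whole gene, the deleted part included or not, and the genotype is therefore given throughout as labelled. Astrocyte, oligodendrocyte, precursor, microglial and endothelial markers were each lower in control neuron than in control whole CA RNA, with list medians from -4.07 to -7.15 on the log2 scale, but neuron markers were not higher there: 4 of 5 general neuron markers and 4 of 6 inhibitory neuron markers were called lower in neuron RNA, with list medians of -0.51 and -0.80. Fibroblast markers had a list median of -0.80 in that contrast, ranging from -4.86 to 0.78. The protocol in the labels describes RNA extraction from whole tissue and sorted nuclei only for ChIP, and the source of the neuron RNA (cells, nuclei or tissue) is not given in the sources used here. Mitochondrial genes held 0.00814 to 0.0144% of the neuron counts and 3.41 to 7.05% of the whole CA counts.

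The 250 bases before an annotated start are shown for a pair of members whose H3K4me3 was shorter in the libraries labelled cKO (Trpc6 and Trpc5) and a pair with no H3K4me3 region (Trpm8 and Trpv1). For Trpc6 these bases lie inside the annotated gene, whose span begins at base 8543867, so the start they precede is not the outermost one. They are RefSeq sequences of build GRCm38.p6, written 5′ to 3′ along the gene, with CpG dinucleotides in capitals. Trpc6 lies at chr9:8543892-8544141 on the + strand, Trpc5 at chrX:144688181-144688430 on the - strand, Trpm8 at chr1:88306485-88306734 on the + strand and Trpv1 at chr11:73233899-73234148 on the + strand.
Trpc6: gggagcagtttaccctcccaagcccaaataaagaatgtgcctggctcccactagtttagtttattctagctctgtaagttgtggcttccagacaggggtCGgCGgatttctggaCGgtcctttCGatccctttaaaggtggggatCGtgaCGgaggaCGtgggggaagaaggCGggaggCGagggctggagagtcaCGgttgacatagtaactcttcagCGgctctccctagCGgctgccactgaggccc
Trpc5: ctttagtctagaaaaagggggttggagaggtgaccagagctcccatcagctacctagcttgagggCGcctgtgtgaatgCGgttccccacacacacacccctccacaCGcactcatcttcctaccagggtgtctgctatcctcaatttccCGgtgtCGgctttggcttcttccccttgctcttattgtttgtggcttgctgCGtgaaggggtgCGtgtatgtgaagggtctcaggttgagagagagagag
Trpm8: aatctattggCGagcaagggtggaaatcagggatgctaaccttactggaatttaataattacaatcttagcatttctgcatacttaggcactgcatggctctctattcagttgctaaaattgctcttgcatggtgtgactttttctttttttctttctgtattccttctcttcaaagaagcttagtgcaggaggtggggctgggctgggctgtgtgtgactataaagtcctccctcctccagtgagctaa
Trpv1: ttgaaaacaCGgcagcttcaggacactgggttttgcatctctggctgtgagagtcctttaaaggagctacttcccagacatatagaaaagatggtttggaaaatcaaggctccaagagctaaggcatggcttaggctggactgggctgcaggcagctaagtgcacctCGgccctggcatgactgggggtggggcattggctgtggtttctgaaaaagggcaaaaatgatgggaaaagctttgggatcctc
The Trpc6 stretch holds 12 CpG dinucleotides, Trpc5 7, Trpv1 2 and Trpm8 1, where the median over 32851 promoters of the same length is 6. As many CpG or more are found in 33.5% of those promoters for Trpc6, and as few or fewer in 18.8% for Trpm8. Among the members not printed, Trpc1 holds 17 and Trpc4 12, and the 3 start windows of Trpv2 hold 2, 2 and 5. The Trpc4 stretch also lies inside its gene, and the Trpc1 stretch does in part. The letters TATAAA, searched on both strands, occur once in the Trpm8 stretch and once in the Trpc4 stretch, and in 12.4% of all promoters. Trpa1 has no entry in the promoter table.

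Trpa1 RNA was several-fold more abundant in the libraries labelled cKO in both materials. The gene (ENSMUSG00000032769) lies at chr1:14872644-14918862 in GRCm38.p6. In neuron RNA the cKO libraries had 778, 723 and 756 Trpa1 counts, and the controls 96, 88 and 107. Scaled to CPM with trimmed-mean normalisation these were 11.7, 11.3 and 13.5 against 1.59, 1.43 and 1.56. The groups did not overlap, and each varied little within itself.

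The mean Trpa1 level in neurons was 12.1 ± 1.18 CPM (SD, n = 3) in the libraries labelled cKO and 1.52 ± 0.083 (SD, n = 3) in the controls, a ratio of 7.97 and a fitted log2 difference of 2.99 ± 0.12 (SE). Whole CA tissue held far fewer Trpa1 counts per library. The 6 cKO libraries had 27, 9, 28, 21, 18 and 25 counts and the 6 controls 2, 5, 5, 2, 5 and 6. In CPM the cKO libraries ran from 0.597 through a median of 1.24 to 1.68, and the controls from 0.123 through 0.267 to 0.356. Again every cKO library lay above every control; the cKO library nearest to them was replicate 2.

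**Figure D1:**
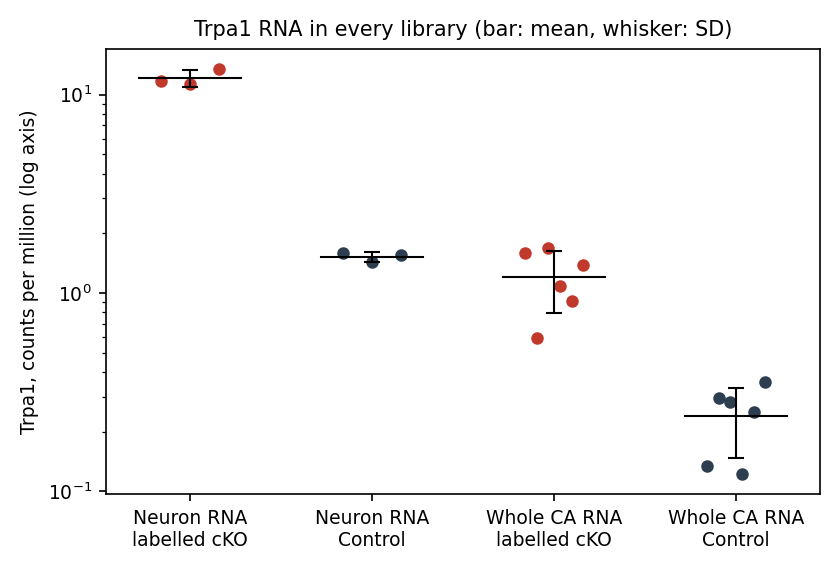
Trpa1 RNA in CPM on a log axis, 1 point per library, for neuron RNA (3 libraries labelled cKO, 3 Control) and whole CA RNA (6 and 6), with the mean as a bar and the SD as a whisker. The neuron cKO points sit between 11.3 and 13.5 CPM against 1.43 to 1.59 in controls, and the whole CA cKO points between 0.597 and 1.68 against 0.123 to 0.356.

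The whole CA mean was 1.21 ± 0.42 CPM (SD, n = 6) in the libraries labelled cKO and 0.241 ± 0.093 (SD, n = 6) in the controls, a ratio of 5.02 and a fitted log2 difference of 2.28 ± 0.33 (SE). Over the 6 libraries this rests on 128 cKO counts and 25 control counts, and Trpa1 passed the low-count filter there through the cKO libraries alone. The whole CA libraries were sequenced on 2 lanes, each with 3 libraries of each genotype, and the log2 difference was 2.39 ± 0.52 (SE) within lane 1 and 2.17 ± 0.45 within lane 2. The difference between genotypes was 0.70 ± 0.39 (SE, log2) larger in neurons than in whole CA in a joint fit of all 18 libraries, given without a test.

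On the common CPM scale of all 18 libraries, Trpa1 stood in the order cKO neurons (11.3 ± 1.07, SD, n = 3), control neurons (1.40 ± 0.092), cKO whole CA (1.26 ± 0.43, SD, n = 6) and control whole CA (0.25 ± 0.097). The middle pair overlapped: control neurons ran from 1.30 to 1.48 CPM and cKO whole CA from 0.621 to 1.75. Between the controls of the 2 materials the fitted Trpa1 difference was 2.45 ± 0.28 (SE, log2), higher in neuron RNA; it is a description with no test, since the same control libraries entered the choice of the gene and the whole CA controls held 2 to 6 counts each.

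The 5 genes whose log2 CPM followed that of Trpa1 most closely over the 18 libraries were Wdr17 (Pearson r = 0.951), Cemip2 (0.935), Ift81 (0.934), Dus4l (0.929) and Sptbn5 (0.926), of 17523 genes. These points share their libraries, and the coefficient takes in both the material and the genotype difference, so it is a description. Higher values under the cKO label follow from that choice and are given with no test: the log2 differences were 0.98 in neurons and 0.92 in whole CA for Wdr17, and 1.05 and 1.15 for Sptbn5, a spectrin gene. Among the other members Trpc1 had the highest coefficient with Trpa1, 0.82, and Trpc5 the lowest, -0.80.

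Genes next to Trpa1 on chromosome 1 were looked at for a shared change. Of the 5 protein-coding genes on each side, 8 were tested with neuron libraries and 6 with whole CA libraries, and edgeR called 0 of them; 0 had an unadjusted p under 0.05, and the lowest adjusted p was 0.333. Msc, the nearest on one side at 116555 bp, was at 2.57 CPM in cKO and 2.77 in control neurons. Kcnb2, a voltage-gated potassium channel gene and the nearest on the other side at 368063 bp, was at 49.1 and 51.5.

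The other sensory channels had low counts. Trpv1 (chr11:73234149-73261322) had 18, 18 and 19 counts in cKO neurons and 33, 25 and 30 in control neurons, or 0.27, 0.281 and 0.339 CPM against 0.546, 0.406 and 0.436. Its log2 difference was -0.64 ± 0.27 (SE) with an edgeR adjusted p of 0.267, so the lower cKO counts did not pass the test. Trpm8 (chr1:88306735-88388853) had 23, 21 and 23 counts in cKO neurons and 10, 19 and 12 in control neurons, a log2 difference of 0.73 ± 0.33 (SE, adjusted p = 0.293). The groups did not overlap for either gene, yet neither difference was called.

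In whole CA RNA, Trpv1 had 1 to 4 counts per cKO library and 2 to 5 per control library, and Trpm8 1 to 8 and 0 to 4. Neither gene passed the low-count filter there, and a count of 0, as in Control replicate 3 for Trpm8, allows up to 0.17 CPM (3 counts). Neither was tested in whole CA.

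Trpv2 (chr11:62574486-62600305) showed no called difference in either material. It stood at 34.9, 33.5 and 33.5 CPM in cKO neurons and 38.2, 33.7 and 32.9 in control neurons, a log2 difference of -0.04 ± 0.089 (SE, adjusted p = 0.846). In whole CA the 6 cKO libraries ran from 17.8 through 19.9 to 22.6 CPM and the 6 controls from 16.3 through 19.5 to 20.6, a log2 difference of 0.08 ± 0.078 (SE, adjusted p = 0.722). The groups overlapped in both materials.

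Among the canonical channels, Trpc6 was the member that passed the test. Trpc6 (chr9:8543867-8680752) was at 16.9, 19.5 and 22.3 CPM in cKO neurons and 27.6, 31.7 and 29.3 in control neurons. All 3 cKO libraries lay below all 3 controls, and Trpc6 fell by 0.60 ± 0.11 (SE) on the log2 scale (edgeR adjusted p = 0.0259). The call was lost when cKO replicate 1 (adjusted p = 0.104), cKO replicate 2 (0.0778), Control replicate 2 (0.0791) or Control replicate 3 (0.0812) was left out, with the difference between -0.70 and -0.50 over the 6 libraries left out in turn. In whole CA the 6 cKO libraries ran from 7.63 through 9.01 to 10.1 CPM and the 6 controls from 10.2 through 10.8 to 11.3. There too every cKO library was below every control, and the log2 difference of -0.27 ± 0.094 (SE) had an adjusted p of 0.125. Within lane 1 it was -0.19 ± 0.14 and within lane 2 -0.35 ± 0.14.

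Trpc1 (chr9:95705072-95750386) stood at 131.4, 133.1 and 123.5 CPM in cKO neurons and 99.3, 123.5 and 110.4 in control neurons; the lowest cKO value was above the highest control value by less than the rounding of these numbers. The log2 difference was 0.22 ± 0.097 (SE, adjusted p = 0.284) in neurons and 0.11 ± 0.059 (adjusted p = 0.43) in whole CA, where the cKO libraries ran from 61.2 through 69.5 to 72.9 CPM and the controls from 57.6 through 62.9 to 68.5. Its partner Trpc4 (chr3:54155584-54318471) was at 133.4, 120.2 and 120.6 CPM in cKO neurons and 145.4, 146.9 and 138.3 in control neurons. The Trpc4 groups did not overlap, but the log2 difference of -0.20 ± 0.083 (SE) did not pass the test (adjusted p = 0.257), and in whole CA it was -0.06 ± 0.063 (adjusted p = 0.715). The whole CA groups overlapped for Trpc4, with 67.0 through 81.6 to 83.1 CPM in cKO and 74.5 through 81.9 to 90.2 in control libraries.

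Trpc5 (chrX:144377327-144688180) was at 25.2, 25.7 and 26.96 CPM in cKO neurons and 28.9, 29.9 and 24.8 in control neurons, with overlap and a log2 difference of -0.10 ± 0.096 (SE, adjusted p = 0.615). In whole CA the cKO libraries ran from 26.4 through 29.1 to 31.8 CPM and the controls from 30.8 through 33.8 to 36.5, a log2 difference of -0.20 ± 0.066 (SE, adjusted p = 0.112). The library kit does not mark strand, so reads of Trpc5 and of its overlapping antisense gene Trpc5os cannot be told apart. The same limit holds where Trpc5 overlaps Gm15071 and Mageb16-ps1. It also holds where Trpc6 overlaps Gm32014, Trpc1 overlaps Gm39407 and Trpm8 overlaps Gm51639.

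**Figure D2:**
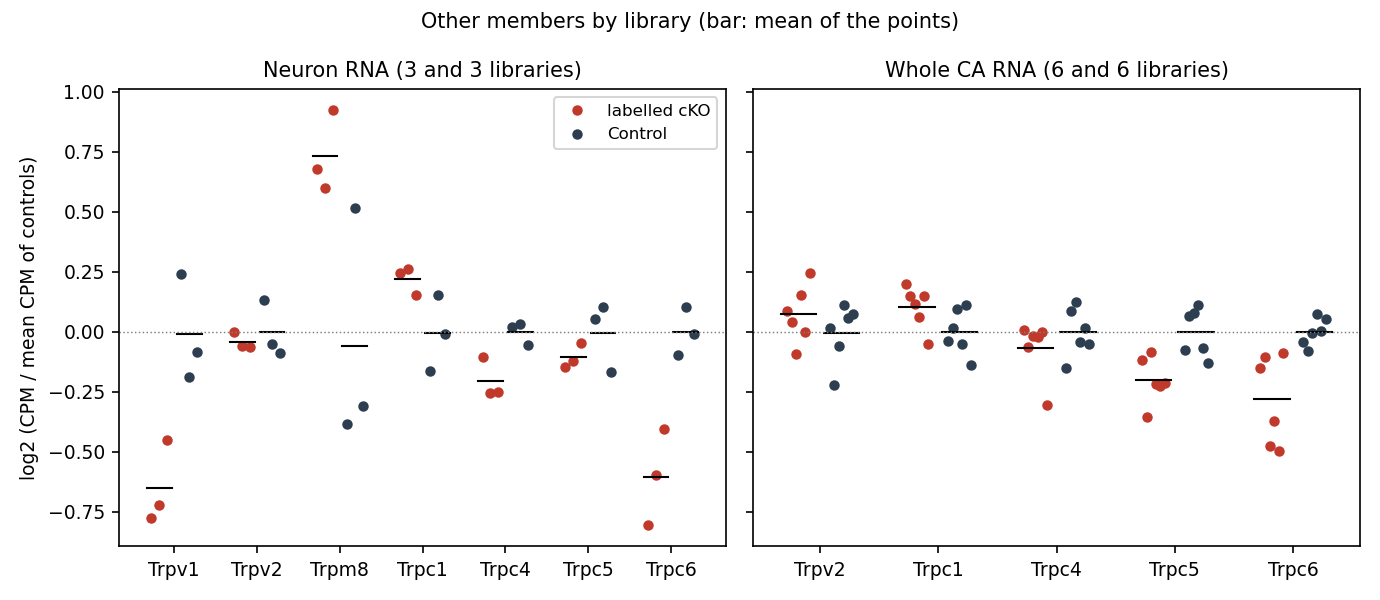
Each library's CPM over the mean CPM of the controls of that material, on a log2 scale, for the members other than Trpa1 that passed the low-count filter (left, neuron RNA; right, whole CA RNA), with the mean of the points as a bar. Trpc6 lies below the controls in every library labelled cKO, with mean levels of 19.6 against 29.6 CPM in neurons and 8.92 against 10.8 in whole CA.

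Of the 7 members other than Trpa1, 1 of 7 tested was called in neuron RNA, where 2.75% of 19622 genes were called. In whole CA 0 of 5 tested were called, where 4.17% of 15362 genes were, and DESeq2 called the same number there. By edgeR's unadjusted p, 4 members in neurons and 2 in whole CA were under 0.05, as were 3379 and 2410 of all genes tested. The 7 had a median log2 difference of -0.10 in neurons, where all genes had 0.019, and the 5 tested in whole CA a median of -0.063 against -0.0027. Among these members Trpv1, Trpm8, Trpc1, Trpc4 and Trpc6 had genotypes that did not overlap in neurons, where 23.9% of all tested genes did not. In whole CA Trpc6 alone had none, where 3.08% of genes did not overlap. Trpa1 is left out here, since it was chosen for its rise. The genotype difference of none of the 5 tested in whole CA differed between the materials by the interaction test, in which 0.160% of 17523 genes were called. Of the 5, 1 had an unadjusted p under 0.05, as had 1421 of all genes: Trpc6, at -0.31 ± 0.14 (SE, log2, edgeR adjusted p = 0.596).

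Between control neurons and control whole CA, Trpc6 was 1.28 ± 0.098 (SE, log2), Trpv2 0.70 ± 0.085, Trpc1 0.63 ± 0.073 and Trpc4 0.62 ± 0.074 higher in neuron RNA. Trpc5 was the exception at -0.45 ± 0.081. All 5 were called by edgeR, with adjusted p of at most 1.91e-05, but 83.0% of 17523 genes were called in that comparison.

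The rest of the TRP family was compared as a fixed list of 20 genes. In neuron RNA 15 were tested and 0 called by edgeR, with a median log2 difference of -0.011. By edgeR's unadjusted p 2 were under 0.05, as were 3379 of all 19622 genes, and DESeq2 called 1, Trpv6. In whole CA 14 were tested and 1 called by edgeR, where 4.17% of all genes were, and DESeq2 called 3 (Trpm3, Trpm7 and Mcoln1). The gene called by both was Trpm3, a channel of the melastatin subfamily opened by heat and neurosteroids. Trpm3 ran from 37.9 through 45.6 to 49.8 CPM in the 6 cKO libraries and from 51.2 through 57.1 to 60.6 in the 6 controls, so the groups did not overlap and it fell by 0.32 ± 0.070 (SE) on the log2 scale (adjusted p = 0.0115). In neurons its log2 difference was -0.35 ± 0.10 (SE, adjusted p = 0.119).

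Canonical TRP channels are driven by Gq-coupled receptors, and 21 genes of that pathway and of store-operated calcium entry were followed. In neuron RNA 2 of the 21 were called by edgeR, both lower, where 2.75% of all genes were called, and DESeq2 called 4 (these 2 with Orai2 and Orai3): Chrm3, a Gq-coupled muscarinic receptor, by a log2 difference of -0.48 ± 0.082 (SE, adjusted p = 0.0153), and Itpr2, an intracellular calcium release channel, by -0.91 ± 0.11 (adjusted p = 0.00199). In whole CA 3 were called by edgeR, and 3 by DESeq2, where 4.17% of all genes were: Chrm3 at -0.28 ± 0.078 (adjusted p = 0.0468), the calcium entry channel gene Orai2 at -0.27 ± 0.060 (0.0122) and Itpr1 at 0.19 ± 0.051 (0.042), higher in the libraries labelled cKO. The list's median was -0.11 in neurons and -0.019 in whole CA.

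A list of 28 genes typical of sensory neurons had 16 tested in neuron RNA and 11 in whole CA. In each material edgeR called 1 of them, where 2.75% and 4.17% of all genes were called. Piezo1, a mechanically gated channel, was called in neurons at 4.34 to 5.16 CPM in cKO against 2.21 to 3.29 in control libraries (log2 difference 0.75 ± 0.16, SE, adjusted p = 0.039). In whole CA Piezo1 was not called (0.31 ± 0.17, adjusted p = 0.398). P2rx3, an ATP-gated channel of pain-sensing neurons, was called in whole CA at 2.44 to 3.60 against 1.17 to 2.16 CPM (0.78 ± 0.18, adjusted p = 0.0156). It was not called in neurons (0.28 ± 0.21, adjusted p = 0.544). The list's median log2 difference was -0.20 in neurons and 0.0089 in whole CA, and its summed level was 151.3 to 160.7 CPM in cKO neurons and 162.9 to 174.5 in control neurons.

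Some cell type markers moved with the genotype label. In neuron RNA the 4 dentate granule cell markers summed to 115.8 to 149.6 CPM in cKO and 153.6 to 179.1 in control libraries. By the test 3 of 4 were lower (C1ql2, Dsp and Tdo2), where 2.75% of all genes were called. In whole CA the sums overlapped, at 30.25 to 74.09 against 54.18 to 83.45 CPM, and 1 of 4 was lower by edgeR (Dsp) and 0 by DESeq2. Prox1 was called in neither material, at -0.021 (log2, edgeR adjusted p = 0.93) in neurons and -0.35 (0.145) in whole CA. The 5 fibroblast markers summed to 13.6 to 16 against 45.8 to 57.2 CPM in neurons and 21.4 to 27.2 against 59.3 to 95.5 in whole CA. By the test 2 of 5 and 1 of 5 were lower: Dcn at -1.92 and -2.25 (log2) and, in neurons, Ogn at -3.45. Lum, Col1a1 and Col1a2 were called in neither material, at -0.33, -0.60 and 0.45 in neurons and -0.72, -0.28 and -0.29 in whole CA. In control neuron against control whole CA RNA, Dcn was at -0.80, Ogn at 0.78 and Col1a2 at -4.86. Of the 4 choroid plexus markers, 1 was tested in neurons and 3 in whole CA, and Kl was the one called lower in each, at -1.07 and -1.04. In whole CA Ttr (-0.28, edgeR adjusted p = 0.759) and Folr1 (-0.12, 0.897) were not called. Between the controls Kl was not called lower in neuron RNA (-0.15), while Ttr (-5.76) and Folr1 (-4.54) were. In whole CA 1 of 5 astrocyte markers (Aqp4) and 1 of 5 microglial markers (Cx3cr1) were lower by edgeR, where 4.17% of all genes were called. By edgeR's unadjusted p 2 and 4 were under 0.05, as were 2410 of all 15362 genes, and DESeq2 called 1 and 3 (with Csf1r and P2ry12). No marker of neurons, inhibitory neurons, oligodendrocytes, their precursors, endothelial or mural cells was called in either material. No marker of any of these lists was at 0 in all libraries of a group. Their part in the Trpa1 and Trpc6 differences was not tested.

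The ChIP data did not enter the choice of Trpa1. They are lists of enriched regions (peaks) per library; peaks of 1 mark were merged over libraries, regions with a peak in at least 3 libraries were kept, and the number of bases under peaks was compared with limma on log2(bases + 100). H3K4me3 marks gene starts, and in these libraries it overlapped 62.4% of the start windows of 17492 protein-coding genes and 5.72% of windows at their other ends. At Trpa1 it lay over the gene boundary at base 14918862, in the region chr1:14918103-14919471. The strand of Trpa1 is not given in the sources used here, so this boundary is named neither the start nor the far end of the gene. Libraries labelled cKO had 1151, 1332, 1145 and 1161 bases of it under peaks and controls 669, 775, 1189 and 776.

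Control replicate 3 was as high as the cKO libraries, and the groups overlapped. The means were 1197 ± 90.1 (SD, n = 4) and 852 ± 230.0 (SD, n = 4) bases, a log2 difference of 0.47 ± 0.16 (SE) with a limma adjusted p of 0.108. It was not called in 12 of 13 alternatives (0.25 to 0.50); the exception was leaving out Control replicate 3, the library that overlapped, with 0.63 (adjusted p = 0.00657). The highest fold enrichment over input that the authors' peak caller gave in the region was 14.2 to 19.6 in the libraries labelled cKO and 11.3 to 15.6 in the controls, with overlap.

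H3K27ac, a mark of active promoters and enhancers, had a narrow region within the same place, chr1:14918604-14918983. It was under peaks for 185, 213, 271 and 363 bases in the 4 libraries labelled cKO and for 0 bases in each of the 3 controls. The log2 difference was 1.81 ± 0.20 (SE) with a limma adjusted p of 0.00444. The region passed the filter of at least 3 libraries through the libraries labelled cKO alone, and its controls had no spread, so this p is given as a description. A peak in every cKO and in no control library was found at 0.986% of 113122 H3K27ac regions. The peaks were weak, with fold enrichments of 3.02 to 4.93 and -log10 q from 2.43 to 7.83; with an offset of 1000 bases the adjusted p was 0.109, and only 1 of the 4 peaks stood above a -log10 q of 5.

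H3K9ac, another mark of active promoters, covered 412, 175 and 413 bases of chr1:14918520-14919017 in the libraries labelled cKO and 306, 0, 438 and 402 in the controls, a log2 difference of 0.36 ± 0.65 (SE, limma adjusted p = 0.869). H3K4me1, found around promoters and at enhancers, covered 1264 ± 219 (SD, n = 4) and 1214 ± 313 (SD, n = 4) bases of chr1:14917955-14919549, a log2 difference of 0.07 ± 0.21 (adjusted p = 0.901), and a further 2 H3K4me1 regions inside the gene were not called. In controls the same place thus held H3K4me3 peaks in 4 of 4 libraries and H3K9ac peaks in 3 of 4, with no H3K27ac peak called in the 3 libraries of that mark.

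**Figure D3:**
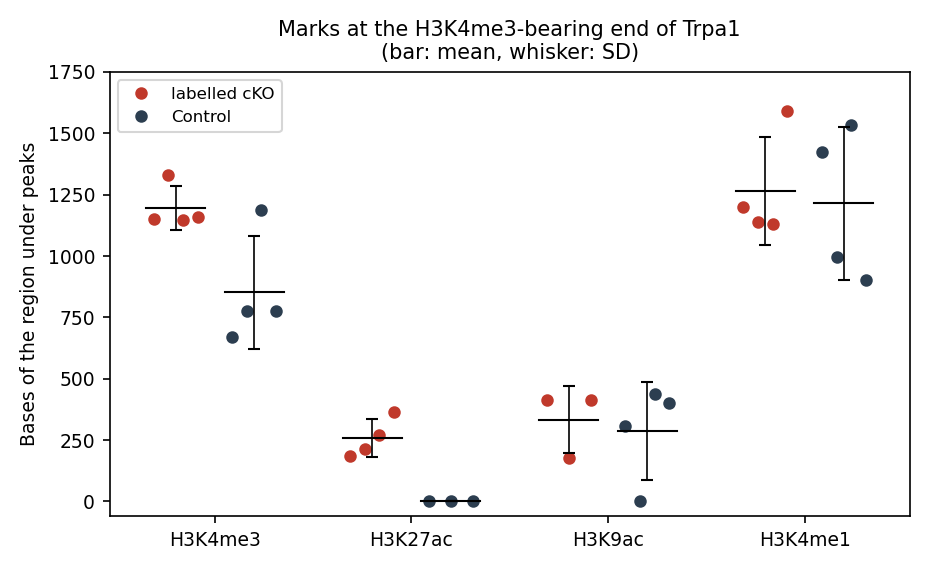
Bases under peaks in the region at the H3K4me3-bearing boundary of Trpa1 for each mark, 1 point per library, with the mean as a bar and the SD as a whisker. H3K27ac is the mark whose groups do not overlap, at 185 to 363 bases in the libraries labelled cKO and 0 in the 3 controls.

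Of the other members, Trpc6 and Trpc5 had shorter H3K4me3 at their starts in the libraries labelled cKO. At the start of Trpc6 (chr9:8543596-8547125) peaks covered 1612, 2216, 1932 and 2159 bases in cKO and 3122, 3023, 3013 and 3511 in control libraries. All 4 cKO values were below all 4 controls, and the covered length fell by 0.66 ± 0.11 (SE) on the log2 scale (limma adjusted p = 0.00944; 0.0615 when peaks within 1 kb were merged). At the start of Trpc5 (chrX:144684910-144690470) they covered 3616, 4133, 4084 and 4040 against 5114, 5386, 5411 and 5223 bases, a fall by 0.41 ± 0.063 (SE, log2, adjusted p = 0.00612). The Trpc5 region also overlaps another gene, Rtl4, so its H3K4me3 cannot be assigned to Trpc5 alone. Peak heights overlapped at both starts: the highest fold enrichment over input was 26.3 to 41.3 in cKO and 35.2 to 42.5 in control libraries at Trpc6, and 29.3 to 35.2 against 29.2 to 33.3 at Trpc5.

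The start regions of Trpc1 (chr9:95747818-95751112) and Trpv2 (chr11:62574998-62577439) were also shorter in every cKO than in every control library, with means of 2549 against 3124 and 2101 against 2346 bases, but at adjusted p of 0.0939 and 0.134 neither was called. At Trpc4 (chr3:54154575-54159583) the means were 4554 ± 234 and 4814 ± 100.9 bases (SD, n = 4 each), with overlap (adjusted p = 0.471). Over the 6 members with H3K4me3 regions, 2 of 10 regions were called, both shorter, where 10.8% of all 44667 regions were called, and 4 of 10 had groups that did not overlap, where 18.8% did not. The members' shares were not tested against these backgrounds.

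**Figure D4:**
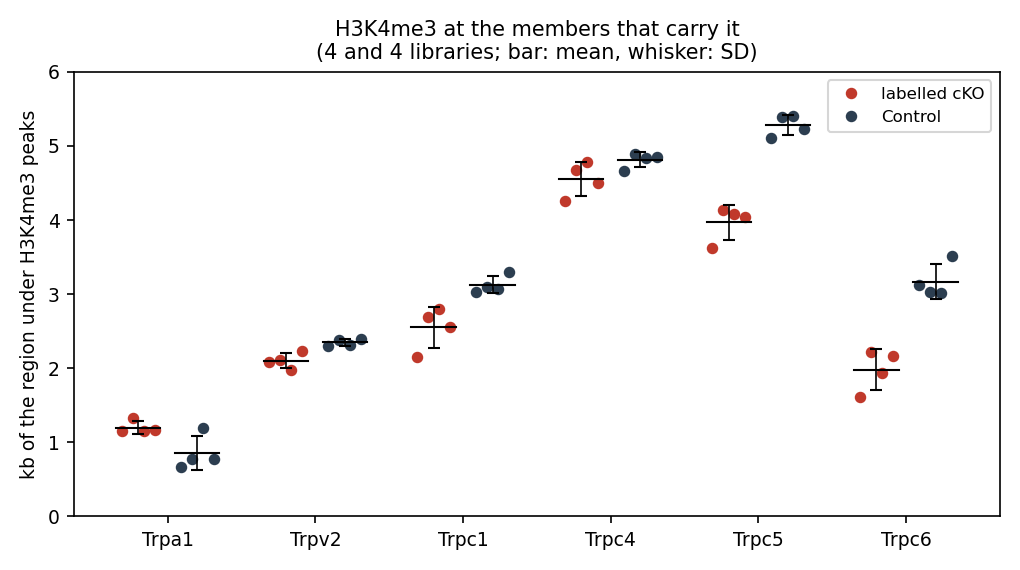
Kilobases under H3K4me3 peaks at the start regions of Trpv2, Trpc1, Trpc4, Trpc5 and Trpc6 and at the H3K4me3-bearing boundary of Trpa1, whose strand is not given, 1 point per library (4 labelled cKO, 4 Control), with the mean as a bar and the SD as a whisker. Trpc6 and Trpc5 show the gaps that were called, and Trpa1 is the member whose cKO mean is the higher one, at 1197 against 852 bases.

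Trpv1 had no H3K4me3, H3K27ac or H3K9ac peak within 5 kb of the gene in any library. Trpm8 had an H3K4me3 peak in 2 of 4 cKO and 0 of 4 control libraries and no region in 3 or more.

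Peaks of the acetyl marks at the start of Trpc6 covered fewer bases under the cKO label, without passing the test. H3K27ac covered 615, 1066, 811 and 884 bases of the start region chr9:8543661-8545658 in cKO and 1657, 1509 and 1998 in control libraries, without overlap, at a limma adjusted p of 0.111 (log2 difference -0.96 ± 0.21, SE). H3K9ac there was 1075 ± 110.1 (SD, n = 3) against 1724 ± 313 (SD, n = 4) bases (adjusted p = 0.248). H3K4me1 at the start (chr9:8543264-8545522) went the other way, with 1818 ± 139 against 1416 ± 68.6 bases (SD, n = 4 each). It was longer in every cKO than in every control library but was not called (limma adjusted p = 0.247). An H3K4me3 region inside the gene, chr9:8629223-8629492, had a peak in 3 of 4 cKO and 0 of 4 control libraries and was not called. Inside the gene, the H3K27ac region chr9:8597107-8597659 was under peaks for 290, 291 and 389 bases in the 3 controls and for 0 in each of the 4 cKO libraries, and was called (log2 difference -2.07 ± 0.15, SE, adjusted p = 0.00165; 0.0678 with an offset of 1000 bases). That region passed the filter of at least 3 libraries through the controls alone, and its cKO libraries had no spread, so its p is given as a description. A peak in every control and in no cKO library was found at 1.33% of H3K27ac regions. H3K9ac at that place, in chr9:8597177-8597528, had a peak in 2 of 3 cKO and 1 of 4 control libraries.

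A pair of H3K9ac regions completed the called regions at members. Each passed the filter of at least 3 libraries through only the genotype that had peaks, so their p-values too are given as a description. Inside Trpm8, chr1:88357166-88357534 was under peaks for 224, 209 and 369 bases in the 3 libraries labelled cKO and for 0 in the 4 controls (log2 difference 1.85 ± 0.18, SE, limma adjusted p = 0.00276), a pattern held by 1.69% of 88791 H3K9ac regions. Inside Trpc5, chrX:144685262-144686177 was under peaks for 201, 181, 432 and 690 bases in the controls and for 0 in the 3 cKO libraries (-2.12 ± 0.39, adjusted p = 0.0476), the reverse pattern, held by 0.786%. The Trpc5 call was lost when any of the 3 cKO libraries was left out (adjusted p of 0.264 to 0.308), and with an offset of 1000 bases it was 0.131 at Trpc5 and 0.0704 at Trpm8. Merging peaks within 1 kb also ended both calls, with log2 differences of -0.60 at Trpc5 and 2.44 at Trpm8.

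In all, 2 of 35 H3K27ac regions and 2 of 23 H3K9ac regions within 5 kb of a member were called, where 2.60% and 2.72% of all regions were. Each of these calls is at a region above with peaks in only 1 genotype, whose p is a description. The counts are therefore a description too, and no excess or lack of calls at members is read from them. None of 53 H3K4me1 regions was called by limma, where 1.49% of 137481 were. Among the 53, 10 had an unadjusted p under 0.05, a count for which the share over all regions is not given here. The cKO and control inputs against which peaks were called held 31.3 M and 28.8 M tags, 1 input per genotype, so a difference between inputs and a difference between genotypes cannot be told apart in these peak lengths.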

How the data were processed

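RNA counts per Ensembl gene were deposited by the authors as whole numbers, unnormalised; the peak lists hold per peak a fold enrichment (a ratio over input), a -log10 q and a pileup or score that the authors' caller wrote. Peaks were called per library with MACS 2.1.0.20140616, or 2.1.1.20160309 for H3K4me3, per the file headers. Per the submitters' processing notes the builds were mm10 and GRCm38, and SAMtools and MACS2 were used; the aligner and counter are not given in the sources used here. Neuron and whole CA libraries were fitted separately with edgeR 4.0.16 (TMM factors, filterByExpr, quasi-likelihood test, Benjamini-Hochberg adjusted p under 0.05), and the 18 libraries together for the interaction and the material contrast. Symbols came from a gene name table that matched 99.3% of neuron and 98.9% of whole CA identifiers. Covered bases of merged regions were tested with limma 3.58.1. RefSeq positions and promoters are of GRCm38.p6.

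Genes named are the 8 members, Setd1b, called genes of the other TRP family, up to 4 called genes of each other list, the neighbours of Trpa1 and its 5 closest patterns, and, for chromatin, regions within 5 kb of members. The members and lists were chosen with earlier results of these data known. Replicate numbers were not taken to pair libraries: deviations of same-numbered libraries correlated at -0.0569 to 0.286 for neurons and -0.0635 to 0.203 for tissue. On simulated data the tests recovered 79.5% of 2-fold changes in neuron RNA and 94.4% in whole CA, among changed genes that passed the low-count filter there. Alternatives covered scaling, filtering, DESeq2 1.42.0, a replicate block, lanes, peak thresholds, and leaving out each library.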

Additional observations from a re-analysis of the deposited data

Results flagged for a closer look

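Among 31 groups of 4 to 6 libraries checked for a library far from the rest, 4 were flagged. Chance flags about 1 group in 20, a rate that need not hold where libraries are tied at 0 bases. In whole CA RNA, Trpc4 stood at 67.0 CPM in cKO replicate 6, below the other 5 cKO libraries. At Trpa1, H3K4me3 covered 1332 bases in cKO replicate 2, above the other 3. The H3K4me1 region at the same gene boundary covered 1590 bases in cKO replicate 4, above the other 3, and a weak H3K4me1 region inside the gene covered 288 bases in Control replicate 1 and 0 in the other 3 controls.

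For 2 listed genes the genotype difference itself differed between neuron RNA and whole CA by edgeR's interaction test. Itpr2 differed by -0.86 ± 0.13 (SE, log2, adjusted p = 0.002), with 4.99 to 5.84 CPM in cKO against 9.79 to 11.1 in control neurons and 29.2 to 32.5 against 27.9 to 37.8 in whole CA. Ogn differed by -3.13 ± 0.47 (adjusted p = 0.00131), with 0.312 to 0.553 against 3.41 to 5.66 CPM in neurons and 0.514 to 3.82 against 1.72 to 2.90 in whole CA.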

How the results depend on the processing

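The log2 difference of Trpa1 lay between 2.91 and 3.04 in neurons and between 2.16 and 2.41 in whole CA over all alternatives that gave one; DESeq2 gave it no adjusted p in whole CA, so no value from it is used there. Of 523 recomputed member differences in RNA, 518 kept their direction and side of the threshold; 4 lost the Trpc6 call in neurons, and 1 reversed: Trpv2 in neurons, from -0.093 to 0.028 over the libraries left out. At Trpa1, leaving out single libraries moved the H3K4me1 region from -0.048 to 0.19 and the H3K9ac region from -0.20 to 0.66 (log2). Genes called in neuron RNA (539) were 840 with DESeq2, 930 at an adjusted p under 0.1, and 207 to 482 without single libraries; in whole CA (640) 207 in lane 1 and 224 in lane 2; for the interaction (28) 69 without the filter, 75 with DESeq2 and 18 to 32 without single libraries. Called H3K4me1 regions (2048) were 698 at a -log10 q of at least 5, 1114 with a peak in every library and 2283 to 3095 without single libraries. For H3K27ac (2945) these were 1359, 81 and 1151 to 4250, with 1177 after merging peaks within 1 kb and 518 with an offset of 1000 bases; for H3K9ac (2419) they were 1418, 156 and 438 to 3727, with 1151 and 712. With a replicate block, 327 genes were called in neuron RNA, 2501 H3K4me3 regions, 680 H3K4me1 regions and 0 regions of either acetyl mark; the adjusted p was 0.104 for H3K27ac at Trpa1, 0.102 inside Trpc6, 0.108 for H3K9ac inside Trpm8 and 0.256 inside Trpc5, and no other member call changed. Same-numbered libraries matched best in 1 of 3 pairs in neurons and 2 of 6 in whole CA. The cause of these shifts was not tested. The called H3K27ac regions of Trpa1 and Trpc6 could not be fitted at a -log10 q of at least 5 or with a peak in every library. The whole CA counts of Trpv1 and Trpm8 were too low to pass the filter.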
